A study of Mus musculus with 22 samples.

Results

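Complement is a cascade of blood and tissue proteins that tags microbes, immune complexes and dying cells and then calls in phagocytes. The classical pathway starts when C1q, a bouquet of chains encoded by C1qa, C1qb and C1qc, binds its target, all pathways meet at C3, and properdin (Cfp) stabilizes the alternative pathway enzyme that cleaves more C3. The fragments C3a and C5a signal through the receptors C3ar1 and C5ar1, while Cd55 and Cd59a are membrane proteins that shield host cells. Most circulating complement is made in the liver, but tissue macrophages and some dendritic cells (DCs) make C1q, C3 and properdin locally. These 9 genes were chosen by name, by their place in the cascade, with earlier results of these data known. They are 9 of the 34047 genes counted. Their loci, each the gene body extended by 10 kb on both sides with the 3 C1q genes taken as 1 cluster, held 59 of the 177956 windows of open chromatin.

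The study sorted 3 subsets of conventional DCs (cDCs) from untreated male and female Tbx21RFP-cre mice aged 6–10 weeks, which were homozygous for a knock-in allele that reports T-bet (Tbx21), a transcription factor, through a red fluorescent protein (RFP). All groups carry this allele. Cells negative for lymphocyte lineage markers, CD64 and Ly6C and positive for CD11c and MHC class II were separated into cDC1s (XCR1+ CD11b-), T-bet- cDC2s (CD11b+ XCR1- RFP-) and T-bet+ cDC2s (CD11b+ XCR1- RFP+). RNA-seq covered spleen, with 3 libraries of each subset, and mesenteric lymph node (MLN), with 3 cDC1 libraries and 2 libraries for either cDC2 subset, and each library pooled cells of 2 mice. ATAC-seq, which counts transposase insertions in open chromatin, covered the spleen with 2 libraries per subset.

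RNA libraries held 20993220–29006549 counts and ATAC libraries 7270164–10081555 counts in windows. The sort by RFP could be read from the summed counts-per-million values (CPM, with scaled library totals) of Tbx21 and Dtx1, which were 325.4–350.8 in spleen T-bet+ cDC2s, against 6.46–11.1 for T-bet- cDC2s and 0.725–1.61 for cDC1s. In MLN the same sum was lower, at 17.1–39.1 for T-bet+ against 2.95–3.50 for T-bet- cDC2s. The libraries of MLN cDC1 replicate 2 and MLN T-bet+ cDC2 replicate 2 stood apart, with summed CPM of 6 stromal genes of 47.2 and 48.6 against 0.489–14.9 in the other MLN libraries. P-values measure the spread between these libraries only. Tissue may coincide with sorting or sequencing run, and the effects of these cannot be told apart.

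In spleen, 4 complement genes differed between the cDC2 subsets, and all 4 were lower in T-bet+ cDC2s: C1qa, C1qb, C1qc and C3. They were 8.47-fold to 23.9-fold lower by edgeR's quasi-likelihood test, at a Benjamini-Hochberg adjusted p under 0.05. Of the 8 members with enough counts to test, 0 were higher and 4 lower, against 1.95% of all genes higher and 3.44% lower. Their median log2 fold change was -2.53, and that of all genes tested was -0.01. Against cDC1s, T-bet+ cDC2s had 4 members higher (C1qa, C1qb, C1qc and Cfp) and 0 lower, with 9.97% of all genes higher and 8.20% lower. T-bet- cDC2s had 7 members higher than cDC1s and 0 lower, with 9.65% of all genes higher and 6.20% lower. These 3 comparisons share libraries, so they are given side by side and not as separate support. The members were chosen with earlier results of these data known, so the shares of all genes are given as description only. C1qa, C1qb, C1qc and C5ar1 are also in the list of T-bet- cDC2 genes that the study drew from these same libraries, which is therefore not independent evidence.

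The MLN libraries gave the same signs for these 4 genes with a larger spread. Between MLN cDC2 subsets 0 of 9 members passed the threshold by edgeR, as did 0% of all genes. An unadjusted p under 0.05 by edgeR was found for 6 of the 9 and for 1444 of all 15298 genes. With a replicate block by the number in the library names, edgeR called 3 members (C1qa, C1qb and C1qc) and 130 of the 15298 genes. DESeq2 called 4 members (C1qa, C1qb, C1qc and C5ar1) and 328 of all 16160 genes it tested. In T-bet- cDC2s 5 members were higher than in MLN cDC1s (C1qa, C1qb, C1qc, C3 and C5ar1) and 0 lower, against 4.34% and 1.44% of all genes. In T-bet+ cDC2s 1 member, Cfp, was higher than in MLN cDC1s and 0 were lower, against 4.11% and 2.11% of all genes.

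**Figure D1:**
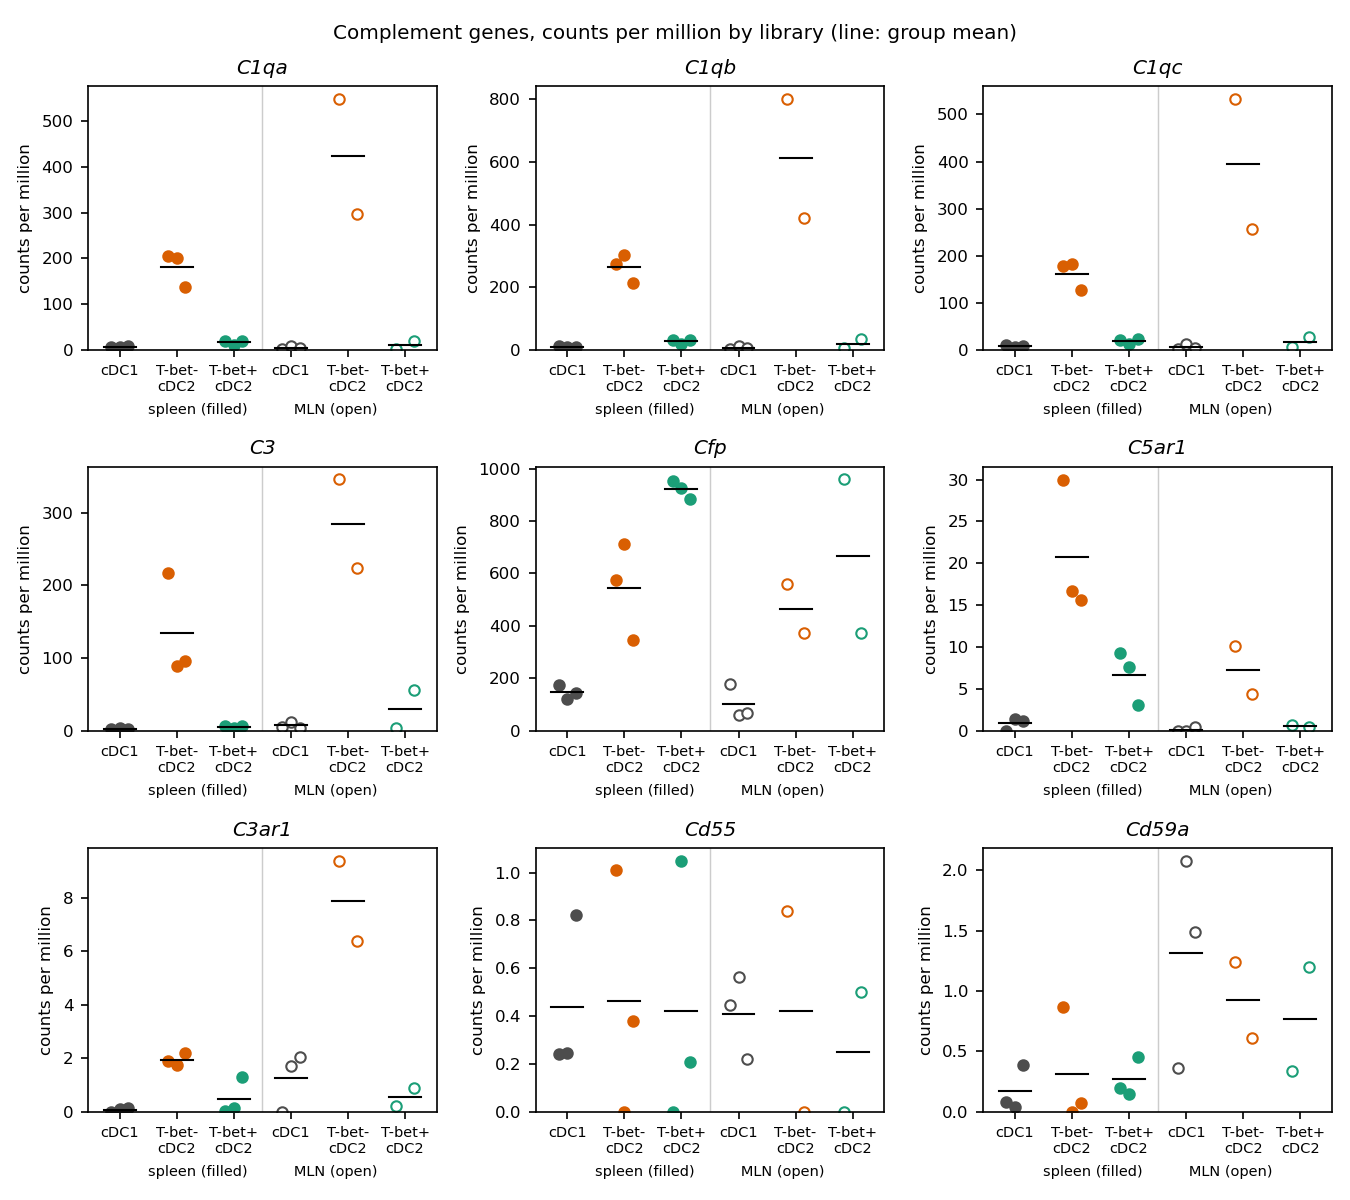
CPM of each of the 9 genes (y axis, linear from 0) in every RNA library, by subset (x axis), with spleen libraries as filled and MLN libraries as open points and the group mean as a line. The C1q chains and C3 stand high in the T-bet- cDC2s of both tissues, Cfp stands high in both cDC2 subsets, and Cd55 and Cd59a stay at or below 2.08 CPM in every library.

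**Figure D2:**
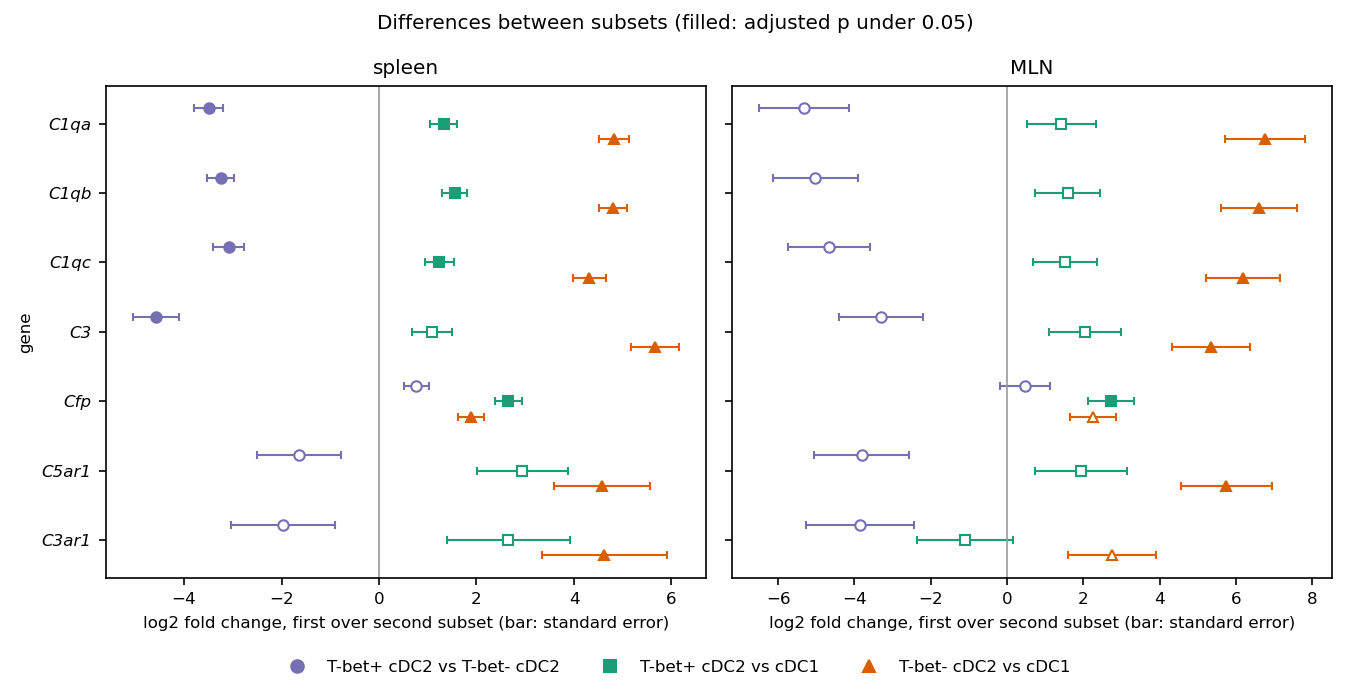
Fitted log2 fold changes (x axis) with their standard errors for 7 members (y axis, without Cd55 and Cd59a, whose counts were too low to give a fold change), in spleen and MLN, for the 3 comparisons of subsets. Filled symbols passed an adjusted p under 0.05: in spleen the C1q chains and C3 lie between -4.58 and -3.08 for T-bet+ against T-bet- cDC2s, and the corresponding MLN symbols are open.

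C1q is built from equal numbers of A, B and C chains, and the 3 genes lie next to each other on mouse chromosome 4, all on the minus strand. In the build of the files, mm10 (GRCm38), C1qb (ENSMUSG00000036905) spans chr4:136880129-136886187, C1qc (ENSMUSG00000036896) chr4:136889804-136893065 and C1qa (ENSMUSG00000036887) chr4:136895917-136898803. In spleen T-bet- cDC2 libraries 1, 2 and 3, C1qa was at 205.7, 201.5 and 136.1 CPM. In the T-bet+ libraries it was at 18.3, 11.3 and 18.6 CPM, and in the cDC1 libraries at 6.56, 5.39 and 7.25 CPM. The 3 subsets did not overlap, with T-bet- cDC2s highest and cDC1s lowest. The log2 fold change between T-bet+ and T-bet- cDC2s was -3.49 ± 0.30 (standard error, SE; edgeR, adjusted p = 0.000275). Against cDC1s it was 4.82 ± 0.32 for T-bet- cDC2s (edgeR, adjusted p = 1.06e-05) and 1.33 ± 0.28 for T-bet+ cDC2s (edgeR, adjusted p = 0.00853). Bulk libraries cannot tell fewer expressing cells from less RNA per cell.

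C1qb had the same order of subsets as C1qa. Spleen T-bet- cDC2s held 274.7, 302.3 and 213.6 CPM, T-bet+ cDC2s 31.6, 19.2 and 32.1 CPM, and cDC1s 10.8, 8.56 and 9.0 CPM. Again no 2 subsets overlapped, and the fall from T-bet- to T-bet+ cDC2s was 9.52-fold (log2 fold change -3.25 ± 0.27, edgeR, adjusted p = 0.000275). C1qc, the chain with the lowest level per length, held 177.7, 181.7 and 126.0 CPM in T-bet- cDC2s, 20.6, 13.0 and 23.6 CPM in T-bet+ cDC2s and 10.4, 6.50 and 7.45 CPM in cDC1s. It was 8.47-fold lower in T-bet+ cDC2s than in their T-bet- counterparts (log2 fold change -3.08 ± 0.32, edgeR, adjusted p = 0.000718). For C1qa and C1qc the difference between T-bet+ cDC2s and cDC1s rested on single libraries, while C1qb passed under every alternative run (largest adjusted p = 0.0192). Without spleen cDC1 replicate 2, C1qa (adjusted p = 0.0538) and C1qc (adjusted p = 0.0962) no longer passed by edgeR and the count of members called fell from 4 to 2. C1qc also lost this call when cDC1 replicate 3 or T-bet+ replicate 1 or 3 was left out.

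The chains differed in level per length, an order that depends on the length used. It was that of all annotated exons of a gene, 1040 bases for C1qa, 1088 for C1qb and 1931 for C1qc. In CPM, C1qc lay above C1qa in every spleen T-bet+ library and below it in every spleen T-bet- library. Per kilobase of exon, the mean level in spleen T-bet- cDC2s was 242 ± 41.7 CPM per kb (SD, n = 3) for C1qb, 174 ± 37.5 for C1qa and 83.8 ± 16.1 for C1qc. Over all 16 RNA libraries C1qb made up 43.3–50.6% of the summed level per length and C1qa 24.6–36.5%. The share of C1qc was 16.5–17.9% in the 5 T-bet- libraries, where C1q was high, and 18.6–25.1% in the 11 others, without overlap. The chains were each other's nearest genes by Pearson correlation of log2 CPM over the 16 libraries (0.9983 for C1qa with C1qb, 0.9968 for C1qa with C1qc, 0.9985 for C1qb with C1qc). Next in likeness to all 3 came Pld3, Nr1h3 and Sepp1, with coefficients of 0.9708, 0.9585 and 0.9504 to C1qa among 11086 genes. These coefficients describe libraries that share subsets and tissues and carry no test.

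In MLN the C1q chains reached their highest levels of any group. C1qa was at 549.6 and 296.2 CPM in the T-bet- libraries, 2.52 and 19.1 CPM in the T-bet+ libraries and 1.01, 7.94 and 3.64 CPM in cDC1s. Both T-bet- libraries lay above every other MLN library, while T-bet+ cDC2s and cDC1s overlapped. Against cDC1s, T-bet- cDC2s were 107.8-fold higher in C1qa (log2 fold change 6.75 ± 1.05, edgeR, adjusted p = 0.011), 97.8-fold higher in C1qb (adjusted p = 0.00979 by edgeR) and 72.8-fold higher in C1qc (adjusted p = 0.0111 by edgeR). These 3 calls were lost without T-bet- replicate 1 (adjusted p 0.0722–0.079) or cDC1 replicate 3 (adjusted p 0.0503–0.0549), and those of C1qa and C1qc also without T-bet- replicate 2. Between the cDC2 subsets the log2 fold changes were -5.33 ± 1.17 for C1qa, -5.03 ± 1.11 for C1qb and -4.67 ± 1.07 for C1qc, and the adjusted p was 0.252, 0.252 and 0.265 by edgeR. With a replicate block by the number in the library names, the adjusted p of each chain was 0.000488 by edgeR. The pair of T-bet+ libraries differed from each other, with C1qb at 5.38 CPM in replicate 1 and 33.3 CPM in replicate 2, the library with the high stromal sum.

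Macrophages are a major source of C1q in tissues, and the CD64 gate was set to remove them. Among 12 macrophage markers, 5 were lower in spleen T-bet+ than in T-bet- cDC2s (Fcgr1, Hmox1, Mertk, Spic and Vcam1) and 0 higher. Of all genes 3.44% were lower and 1.95% higher. The median log2 fold change of the list was -2.17. The summed CPM of the 12 markers was 751.3–1071 in spleen T-bet- cDC2s, 446.7–516.1 for T-bet+ cDC2s and 188.5–267.3 for cDC1s, against 475.7–685.5, 43.5–74.3 and 20.5–27.8 for the 3 C1q chains. Thus both sums were highest in T-bet- cDC2s. No macrophage marker was at 0 in every library of any group. Fcgr1, which encodes CD64, was at 5.36–7.92 CPM in T-bet- cDC2s, 0.413–0.832 CPM in T-bet+ cDC2s and 0–0.435 CPM in cDC1s of the spleen. Adgre1, which encodes F4/80, was at 336–552 and 347–417 CPM in spleen T-bet- and T-bet+ cDC2s, which overlapped (edgeR, adjusted p = 0.753). This gene made up much of the macrophage sum in both cDC2 subsets, so the sums of the subsets lay closer together than the levels of Fcgr1 did.

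In MLN the summed macrophage markers were at 511.7–643.1 CPM in T-bet- cDC2s, 325.5–401.4 CPM in T-bet+ cDC2s and 83.4–219.8 CPM in cDC1s. The C1q sum of MLN T-bet- cDC2s was 974.4–1886 CPM. Of 6 monocyte markers 3 were lower in spleen T-bet+ than T-bet- cDC2s (Ace, Ccr2 and Treml4), with summed CPM of 131.2–137.7 and 490.2–701.3. Spleen cDC1s held 394.9–537.7 CPM of the monocyte sum. The part of such cells in the C1q difference was not tested. Among the other marker lists, spleen T-bet+ cDC2s were lower than T-bet- cDC2s in 3 of 5 cDC1 markers, 3 of 3 T-bet- cDC2 markers, 1 of 4 tested neutrophil markers (Csf3r) and 1 of 3 tested B cell markers (Cd79b). They were higher in both T-bet+ markers and in 1 B cell marker (Ms4a1), and 0 markers of the cDC2, pan-cDC, plasmacytoid DC, T cell, NK cell, red cell and stromal lists passed.

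**Figure D3:**
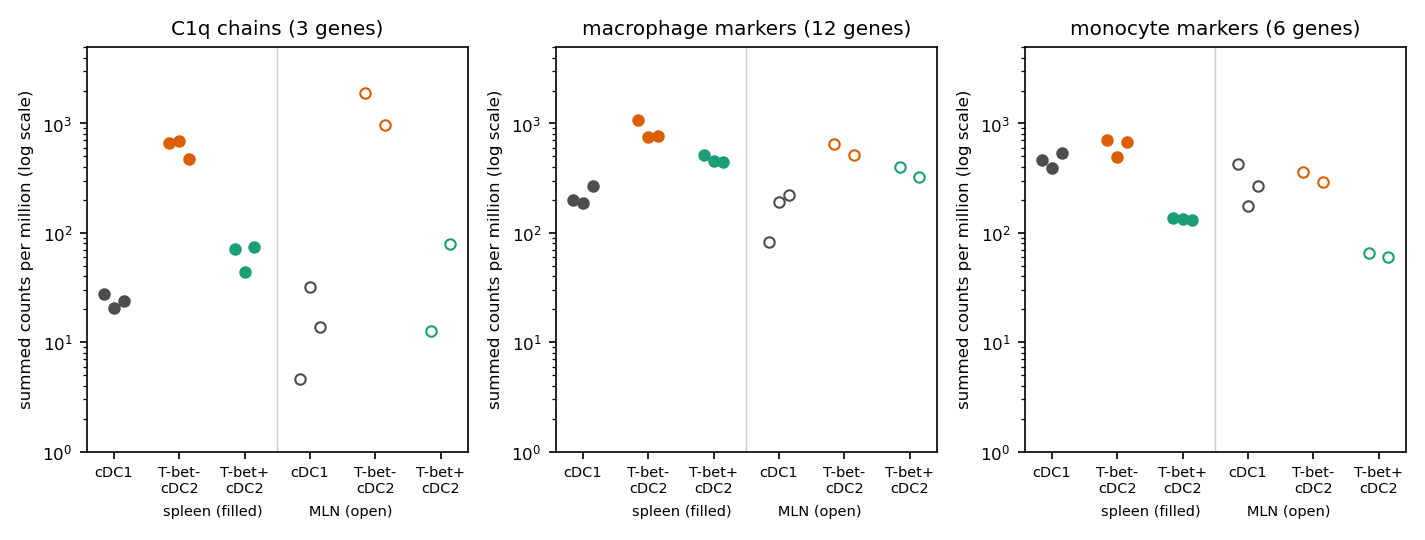
Summed CPM (y axis, log scale) of the 3 C1q chains, 12 macrophage markers and 6 monocyte markers in every RNA library by subset (x axis), with spleen libraries as filled and MLN libraries as open points. The C1q sum of spleen T-bet- cDC2s (475.7–685.5) lies above that of T-bet+ cDC2s (43.5–74.3), while the macrophage sums of those subsets are 751.3–1071 and 446.7–516.1.

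A second property differed between spleen libraries, also within the T-bet- cDC2s and within the cDC1s. Counts were taken relative to the mean of the spleen libraries and ranked against the GC content of the most GC-rich stretch of each gene's longest transcript. They rose with it in all 3 T-bet+ libraries, T-bet- replicate 3 and cDC1 replicates 1 and 2, and fell with it in the remaining 3 spleen libraries. With this library class as a term in the fit the C1q chains and C3 were the 4 members called lower in T-bet+ than T-bet- cDC2s, with log2 fold changes of -3.17, -3.12, -2.95 and -4.36. The class was drawn from these same counts and held all 3 T-bet+ libraries on 1 side. Class and subset therefore cannot be fully told apart, and the part of this property in the difference was not tested. Within the class of rising libraries, the single T-bet- library had 136.1 CPM of C1qa against 11.3–18.6 CPM in the T-bet+ libraries.

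Open chromatin at the C1q cluster differed between the cDC2 subsets at 1 of 8 tested windows, 205 bases upstream of the C1qb start and between genes. Across all loci 7 of 58 tested windows differed between T-bet+ and T-bet- cDC2s (adjusted p under 0.01, absolute log2 difference over 0.5), with 5 higher and 2 lower in T-bet+ cDC2s, against 3.92% and 2.36% of all windows. The 2 lower windows were this one and the window at the C3 start, and the C3 locus also held 1 window that was higher. Whether these windows bear on the RNA was not tested. Against cDC1s, T-bet+ cDC2s had 15 windows higher and 3 lower (11.0% and 12.0% of all windows), and T-bet- cDC2s had 13 higher and 5 lower (7.32% and 10.6%). The C1qb window and the window over the C1qc start are printed because they flank the transcripts that differed. Both are read 5′ to 3′ along the gene (minus strand of mm10), at chr4:136886318-136886467 and chr4:136893026-136893175, and capitals mark matches to 6 short motifs.

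C1qb upstream window: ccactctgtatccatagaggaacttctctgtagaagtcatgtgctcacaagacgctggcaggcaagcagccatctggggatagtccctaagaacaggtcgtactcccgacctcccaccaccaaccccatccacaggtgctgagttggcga
C1qc start window: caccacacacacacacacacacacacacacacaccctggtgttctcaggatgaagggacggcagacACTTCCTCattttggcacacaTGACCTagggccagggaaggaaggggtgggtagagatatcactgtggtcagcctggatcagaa

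The motifs searched on both strands were PU.1 (GAGGAAGT, in 5.5% of all windows), C/EBP (TTGCNNAA, 5.89%), T-box (AGGTGTNA, 1.92%), Runx (TGTGGTT, 5.23%), Maf (TGCTGAC, 3.03%) and ROR (AGGTCA, 9.98%). The C1qb window held none of them. The C1qc start window held 1 PU.1 and 1 ROR match, both on the opposite strand, and the matches in it did not overlap. A match describes the letters only.

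The C1qb upstream window was at 4.44 and 4.96 CPM in T-bet- cDC2s, 1.09 and 0.314 CPM in T-bet+ cDC2s and 0.832 and 0.653 CPM in cDC1s. T-bet- cDC2s lay above both other subsets, which overlapped each other. The log2 fold change was -2.74 ± 0.48 between T-bet+ and T-bet- cDC2s (edgeR, adjusted p = 1.63e-05) and 2.64 ± 0.48 between T-bet- cDC2s and cDC1s (edgeR, adjusted p = 1.25e-05). The exonic window 19 bases inside C1qb, at 2.22 and 2.33 CPM in T-bet- and 1.09 and 0.732 CPM in T-bet+ cDC2s, did not pass (adjusted p = 0.0859 by edgeR). The windows over the C1qc start (log2 fold change -1.12 ± 0.45, adjusted p = 0.0963 by edgeR) and the C1qa start (-0.91 ± 0.39, adjusted p = 0.127 by edgeR) did not pass either. A window 9097 bases downstream of the C1qb start, past the end of the gene, ran the other way, at 3.33 and 5.09 CPM in cDC1s, 0.247 and 0.405 CPM in T-bet- and 1.52 and 0.627 CPM in T-bet+ cDC2s. It was lower than in cDC1s in both T-bet- (log2 fold change -3.60 ± 0.57, edgeR, adjusted p = 5.29e-07) and T-bet+ cDC2s (-1.96 ± 0.46, edgeR, adjusted p = 0.000431), of which the latter was lost with DESeq2 (adjusted p = 0.0237) and without cDC1 replicate 2 (adjusted p = 0.0411) or T-bet+ replicate 2 (adjusted p = 0.0288).

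C3, the protein on which all complement pathways converge, had the largest difference between spleen cDC2 subsets of the 8 members tested. The gene (ENSMUSG00000024164) spans chr17:57203970-57228136 on the minus strand. Spleen T-bet- cDC2s held 217.1, 89.6 and 96.6 CPM, T-bet+ cDC2s 6.93, 3.41 and 6.52 CPM and cDC1s 2.15, 3.37 and 2.42 CPM. One T-bet- library stood well above the other pair, but the lowest was still far above every T-bet+ and cDC1 library. C3 was 23.9-fold lower in T-bet+ than T-bet- cDC2s (log2 fold change -4.58 ± 0.46, edgeR, adjusted p = 0.000699) and 50.7-fold higher in T-bet- cDC2s than in cDC1s (5.66 ± 0.49, adjusted p = 5.63e-05). The difference between T-bet+ cDC2s and cDC1s was 1.09 ± 0.42 (adjusted p = 0.11 by edgeR).

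In MLN, C3 was at 346.0 and 223.4 CPM in T-bet- cDC2s, 3.39 and 55.7 CPM in T-bet+ cDC2s and 5.44, 12.5 and 4.19 CPM in cDC1s. The T-bet- libraries were again the highest, and T-bet+ replicate 2, with the high stromal sum, lay far above T-bet+ replicate 1. C3 was 40.7-fold higher in MLN T-bet- cDC2s than in cDC1s (log2 fold change 5.35 ± 1.03, edgeR, adjusted p = 0.0242), a call that was lost when any single library of those subsets was left out (adjusted p 0.0501–0.144). The difference between MLN cDC2 subsets was -3.31 ± 1.11 (adjusted p = 0.405 by edgeR). Per length, C3 was at 26.1 ± 13.9 CPM per kb (SD, n = 3) in spleen T-bet- cDC2s, below each C1q chain there. The genes most like C3 over the 16 libraries were Capg (0.9611), Msr1 (0.9371), Slc1a2 (0.9345), Sepp1 (0.9303) and Pld3 (0.9273).

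At the C3 locus, which held 9 windows, 1 was lower and 1 higher in T-bet+ than T-bet- cDC2s. Both are shown, from chr17:57228100-57228249 (centered 38 bases before the C3 start) and chr17:57223509-57223658 (in an intron, 4553 bases after it), 5′ to 3′ along the gene on the minus strand, with motif matches in capitals.

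C3 start window: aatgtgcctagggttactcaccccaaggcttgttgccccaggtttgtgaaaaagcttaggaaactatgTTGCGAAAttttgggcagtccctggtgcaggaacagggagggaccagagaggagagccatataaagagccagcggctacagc
C3 intron window: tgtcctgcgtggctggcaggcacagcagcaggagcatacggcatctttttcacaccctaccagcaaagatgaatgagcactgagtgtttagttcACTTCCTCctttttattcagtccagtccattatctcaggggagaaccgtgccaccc

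The C3 start window held 1 C/EBP match, and the intron window 1 PU.1 match. The start window was at 5.30 and 5.97 CPM in T-bet- cDC2s, 0.435 and 1.36 CPM in T-bet+ cDC2s and 0.95 and 1.18 CPM in cDC1s. As with the RNA, T-bet- cDC2s lay above both other subsets (log2 fold change -2.62 ± 0.44 for T-bet+ against T-bet- cDC2s, edgeR, adjusted p = 7.68e-06). The T-bet- difference from cDC1s was 2.40 ± 0.44 (edgeR, adjusted p = 1.2e-05) and the T-bet+ difference from cDC1s was -0.22. The intron window had the opposite order, at 2.1 and 2.73 CPM in T-bet-, 8.05 and 6.27 CPM in T-bet+ cDC2s and 3.80 and 6.53 CPM in cDC1s. It was higher in T-bet+ than T-bet- cDC2s by 1.55 ± 0.34 on the log2 scale (edgeR, adjusted p = 0.000767), a call that was lost with DESeq2 (adjusted p = 0.0105) and without T-bet- replicate 1 (adjusted p = 0.0247) or T-bet+ replicate 1 (adjusted p = 0.0164). An adjacent intron window, 4397 bases after the start, was lower in T-bet- cDC2s than in cDC1s by -2.04 ± 0.53 (edgeR, adjusted p = 0.0019), also lost with DESeq2 (adjusted p = 0.0325) and without cDC1 replicate 2 (adjusted p = 0.0608) or T-bet- replicate 1 (adjusted p = 0.0762).

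Properdin had a pattern of its own, with the highest level per length of the 9 genes in the spleen T-bet- and T-bet+ cDC2s and in cDC1s. Cfp (ENSMUSG00000001128) lies at chrX:20925454-20931555 on the minus strand. Spleen T-bet+ cDC2s held 954.0, 927.1 and 885.3 CPM, T-bet- cDC2s 575.0, 711.2 and 345.6 CPM and cDC1s 174.0, 120.8 and 144.8 CPM. The 3 subsets did not overlap, and T-bet+ cDC2s were the highest. Cfp was 6.31-fold higher in T-bet+ cDC2s than in cDC1s (log2 fold change 2.66 ± 0.27, edgeR, adjusted p = 0.000161) and 3.72-fold higher in T-bet- cDC2s than in cDC1s (1.89 ± 0.27, edgeR, adjusted p = 0.00115). Between the cDC2 subsets the difference of 0.76 ± 0.26 did not pass (adjusted p = 0.141 by edgeR). Per length, Cfp was at 531 ± 19.95 CPM per kb (SD, n = 3) in spleen T-bet+ cDC2s, against 313 ± 106 for T-bet- cDC2s and 84.4 ± 15.3 for cDC1s.

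In MLN, Cfp was at 961.3 and 373.6 CPM in T-bet+ cDC2s, 559.3 and 373.0 CPM in T-bet- cDC2s and 177.4, 59.6 and 65.7 CPM in cDC1s. The cDC2 subsets overlapped there, and both lay above the cDC1s. Cfp was higher in T-bet+ cDC2s than in cDC1s by 2.73 ± 0.60 on the log2 scale (edgeR, adjusted p = 0.039), and the T-bet- difference from cDC1s was 2.25 ± 0.60 (adjusted p = 0.0715 by edgeR). The T-bet+ call was lost when either MLN T-bet- library, cDC1 replicate 2 or 3 or T-bet+ replicate 1 was left out (adjusted p 0.0814–0.196). The genes most like Cfp were H2-DMb2, which encodes a chain of the peptide exchange factor for MHC class II (0.9744), Cklf (0.9721), Cyp4f16 (0.9644), Ptgs2os2 (0.9624) and Ifitm6 (0.961).

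The Cfp locus held 4 windows, of which 3 were more open in both cDC2 subsets than in cDC1s and 0 differed between the cDC2 subsets. The strongest is shown from chrX:20932094-20932243, centered 613 bases before the start, 5′ to 3′ along the gene, with capitals marking a ROR match and a Maf match.

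Cfp upstream window: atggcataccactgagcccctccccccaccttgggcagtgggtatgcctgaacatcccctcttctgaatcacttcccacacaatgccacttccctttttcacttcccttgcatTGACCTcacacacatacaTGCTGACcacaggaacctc

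This window was at 25.5 and 17.4 CPM in T-bet- cDC2s, 21.1 and 17.3 CPM in T-bet+ cDC2s and 8.32 and 9.53 CPM in cDC1s. Both cDC2 subsets lay above cDC1s, by 1.26 ± 0.23 (edgeR, adjusted p = 7.75e-06) and 1.10 ± 0.23 (edgeR, adjusted p = 5.98e-05) on the log2 scale, and overlapped each other. An intron window 1545 bases after the start had the same order, with log2 fold changes of 1.06 ± 0.24 (edgeR, adjusted p = 0.000331) and 0.80 ± 0.24 (edgeR, adjusted p = 0.007). The weaker window 379 bases before the start, at 2.40–3.48 CPM in cDC2 libraries and 0.594 and 1.18 CPM in cDC1s, was higher by 1.71 (edgeR, adjusted p = 0.00512) in T-bet- and 1.73 (edgeR, adjusted p = 0.00341) in T-bet+ cDC2s. Without cDC1 replicate 1 neither of these 2 weaker windows passed, with adjusted p of 0.115 and 0.392 for the intron window and 0.125 and 0.0983 for the upstream one in T-bet- and T-bet+ cDC2s. The T-bet+ call of the intron window was also lost with DESeq2 (adjusted p = 0.044), library size only (adjusted p = 0.0417) and without T-bet+ replicate 1 (adjusted p = 0.0537). The upstream one was lost with DESeq2 in T-bet- (adjusted p = 0.0548) and T-bet+ cDC2s (adjusted p = 0.0408), for T-bet+ cDC2s also with library size only (adjusted p = 0.0106) and without T-bet+ replicate 1 (adjusted p = 0.0533), and for T-bet- cDC2s without T-bet- replicate 1 (adjusted p = 0.0297) or 2 (adjusted p = 0.0123).

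**Figure D4:**
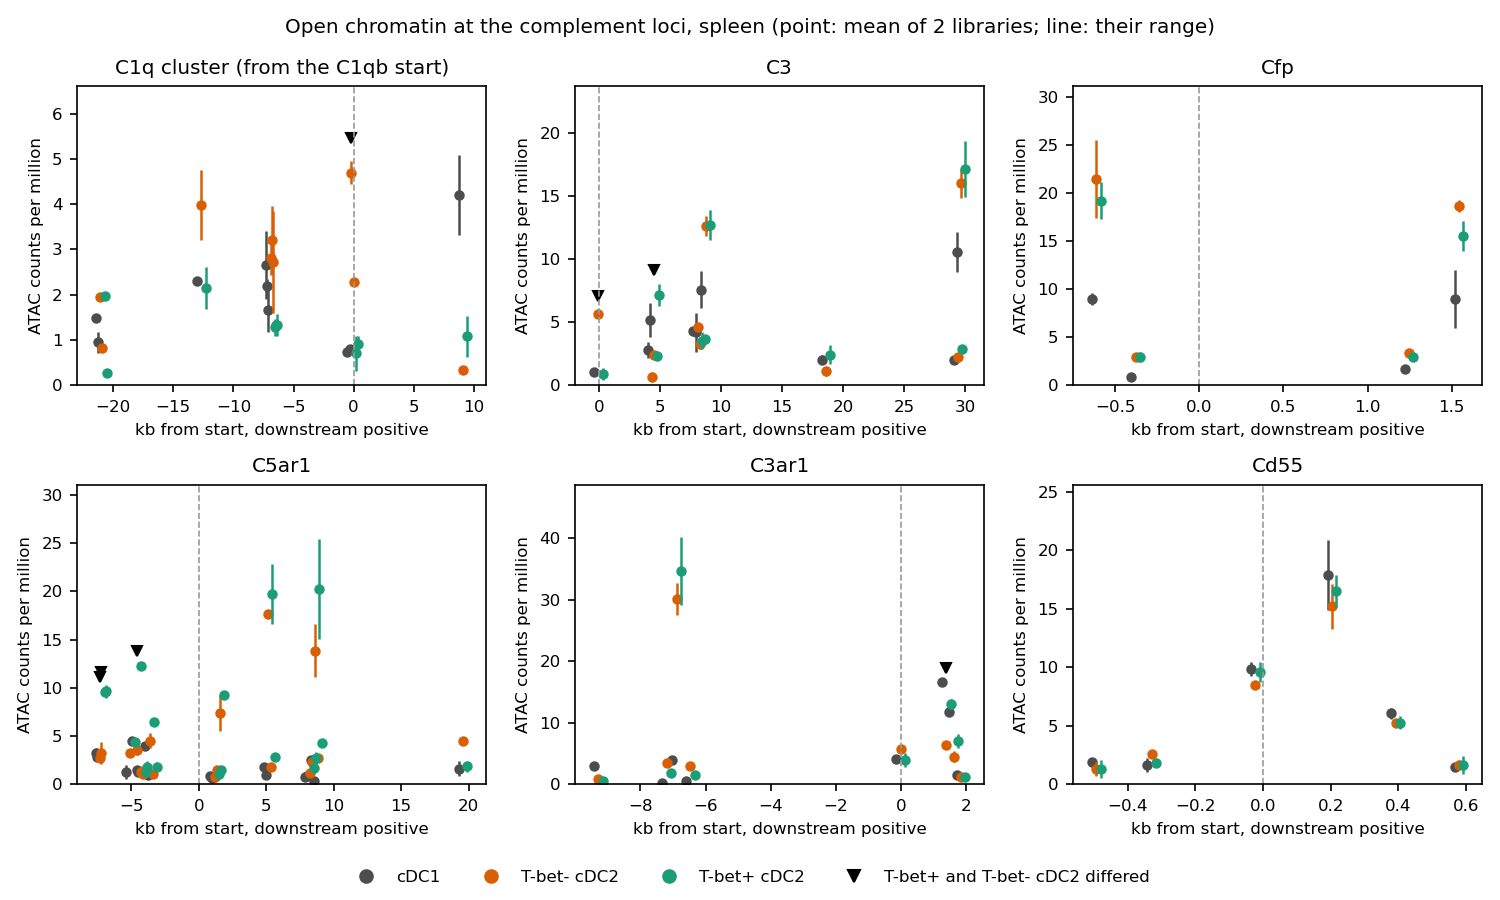
ATAC CPM (y axis) of the windows at 6 loci against distance from the gene start in kb (x axis, downstream positive, from the C1qb start for the C1q cluster), with subsets shifted slightly sideways, the mean of 2 spleen libraries per subset as a point and their range as a line. Black triangles mark the 7 windows that differed between T-bet+ and T-bet- cDC2s: those at the C1qb and C3 starts are higher in T-bet- cDC2s, and the 3 upstream of C5ar1, 1 in C3ar1 and 1 in C3 are higher in T-bet+ cDC2s.

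Both anaphylatoxin receptors were low. C5ar1, the main receptor for C5a and a chemotactic receptor of myeloid cells, lies at chr7:16246743-16259540 on the minus strand (ENSMUSG00000049130). It was at 30.0, 16.7 and 15.6 CPM in spleen T-bet- cDC2s, 9.27, 7.65 and 3.03 CPM in T-bet+ cDC2s and 0, 1.44 and 1.16 CPM in cDC1s. The subsets did not overlap, but the spread was wide. It was higher in T-bet- cDC2s than in cDC1s by 4.58 ± 0.99 on the log2 scale (edgeR, adjusted p = 0.0116). The differences of T-bet+ cDC2s from T-bet- cDC2s (-1.64 ± 0.85, adjusted p = 0.35 by edgeR) and from cDC1s (2.94 ± 0.93, adjusted p = 0.0561 by edgeR) did not pass, although the first did without the filter on low counts (adjusted p = 0.0259) and the second did with DESeq2 (adjusted p = 0.0028), the newer quasi-dispersion estimate (adjusted p = 0.0166), no filter on low counts (adjusted p = 6.31e-06), library class in the fit (adjusted p = 0.025) and without cDC1 replicate 1 (adjusted p = 0.0246). In MLN it was at 10.1 and 4.40 CPM in T-bet- cDC2s, 0.677 and 0.386 CPM in T-bet+ cDC2s and 0, 0 and 0.401 CPM in cDC1s. The T-bet- libraries were the highest here too, and passed against cDC1s (log2 fold change 5.75 ± 1.19, edgeR, adjusted p = 0.0315) but not against T-bet+ cDC2s (adjusted p = 0.396 by edgeR). The call was lost without cDC1 replicate 1 or 2 or either T-bet- library (adjusted p 0.0514–0.255).

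C3ar1, the receptor for C3a, lies at chr6:122847138-122856161 on the minus strand (ENSMUSG00000040552) and had few counts. It was at 1.88, 1.75 and 2.19 CPM in spleen T-bet- cDC2s, 0.0396, 0.150 and 1.29 CPM in T-bet+ cDC2s and 0, 0.0823 and 0.145 CPM in cDC1s, from 131, 36 and 5 counts summed over each subset. T-bet- cDC2s were above both other subsets, which overlapped. It passed between T-bet- cDC2s and cDC1s (log2 fold change 4.63 ± 1.28, edgeR, adjusted p = 0.037), a call that was lost when any single cDC1 or T-bet- library was left out (adjusted p 0.0589–0.127). In MLN, T-bet- cDC2s held 9.38 and 6.39 CPM, T-bet+ cDC2s 0.226 and 0.887 CPM and cDC1s 0, 1.69 and 2.04 CPM, with the T-bet- libraries highest and none of the comparisons past the threshold (adjusted p = 0.234 for T-bet- cDC2s against cDC1s by edgeR). Among the genes most like C5ar1 were Trem1 (0.914) and Syk (0.9064), and among those most like C3ar1 Plod1 (0.9316) and Rab38 (0.9281).

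The receptor loci held most of the windows that differed between cDC2s and cDC1s. The C5ar1 locus held 18 windows, of which 10 were higher in T-bet+ cDC2s than in cDC1s, 5 were higher in T-bet- cDC2s and 0 were lower. Only 11 of the 18 lay nearest to the coding start of C5ar1, and 5 of the 10 and 2 of the 5 were among these. Of the others that were higher, 3 in each comparison lay nearest to the start of the neighboring C5ar2, and 2 of the T-bet+ ones to that of Inafm1. At C3ar1, 8 windows included 2 higher and 1 lower in T-bet+ cDC2s and 3 higher and 3 lower in T-bet- cDC2s, and 1 of the lower ones, shared by both comparisons, lay nearest to the start of Necap1. The window with the smallest adjusted p against cDC1s at each locus is shown, at chr7:16254346-16254495 in an intron 5120 bases after the C5ar1 start and at chr6:122862974-122863123, which lies 6887 bases before the C3ar1 start. Capitals mark a ROR match in the first and a C/EBP match in the second, and both run 5′ to 3′ along the gene.

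C5ar1 intron window: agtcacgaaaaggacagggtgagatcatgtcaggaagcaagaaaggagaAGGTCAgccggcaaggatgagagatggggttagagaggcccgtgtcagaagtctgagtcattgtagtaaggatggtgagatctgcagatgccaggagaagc
C3ar1 upstream window: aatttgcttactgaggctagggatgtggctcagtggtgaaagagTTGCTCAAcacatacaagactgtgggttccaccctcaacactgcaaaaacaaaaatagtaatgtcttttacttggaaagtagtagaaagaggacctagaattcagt

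The C5ar1 intron window was at 17.4 and 18.0 CPM in T-bet- cDC2s, 22.8 and 16.6 CPM in T-bet+ cDC2s and 1.78 and 1.83 CPM in cDC1s. It was open in both cDC2 subsets alike within their spread (log2 fold change 0.15 between them, adjusted p = 0.73 by edgeR) and higher than in cDC1s by 3.28 ± 0.30 in T-bet- (edgeR, adjusted p = 1.22e-14) and 3.44 ± 0.29 in T-bet+ cDC2s (edgeR, adjusted p = 5.98e-16). Windows 1542, 8610 and 8839 bases after the start, the last 2 within C5ar1 but nearer to the start of C5ar2, were higher in cDC2s than in cDC1s as well, with log2 fold changes of 2.45–3.18 for T-bet- and 2.98–3.72 for T-bet+ cDC2s. The window nearest to the start, 1164 bases after it, differed in none of the 3 comparisons. The C3ar1 upstream window was at 32.7 and 27.5 CPM in T-bet- cDC2s, 40.1 and 29.2 CPM in T-bet+ cDC2s and 4.51 and 3.26 CPM in cDC1s. Again the cDC2 subsets overlapped (log2 fold change 0.20, adjusted p = 0.561 by edgeR), and both lay above cDC1s, by 2.94 ± 0.24 (edgeR, adjusted p = 1.7e-16) and 3.14 ± 0.24 (edgeR, adjusted p = 2.81e-18). The window over the C3ar1 start held 2.72–5.87 CPM in the 6 libraries and differed in none of the comparisons.

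Receptor windows that separated the cDC2 subsets were all higher in T-bet+ cDC2s, while the log2 fold changes of C5ar1 and C3ar1 RNA were negative and did not pass the threshold. The 3 at C5ar1 lie outside the rule for windows named and were chosen after their values were seen. The first, at chr7:16264083-16264232 and 4617 bases before the start, was at 12.0 and 12.5 CPM in T-bet+, 4.07 and 3.04 CPM in T-bet- cDC2s and 4.87 and 4.05 CPM in cDC1s. It was higher in T-bet+ than T-bet- cDC2s by 1.79 ± 0.29 (edgeR, adjusted p = 4.41e-06). The other two overlap each other, 7224 and 7310 bases before the start, and are closer to the start of Inafm1 than to that of C5ar1. They were at 8.89–10.3 CPM in T-bet+ and 2.1–4.35 CPM in T-bet- cDC2s and higher by 1.54 ± 0.32 (edgeR, adjusted p = 0.000287) and 1.79 ± 0.32 (edgeR, adjusted p = 2.79e-05), and the former lost its call without T-bet- replicate 1 (adjusted p = 0.0461). At C3ar1 an intron window 1388 bases after the start, also chosen after its values were seen, was at 13.8 and 12.2 CPM in T-bet+, 6.90 and 5.97 CPM in T-bet- cDC2s and 17.0 and 16.3 CPM in cDC1s. T-bet- cDC2s were the lowest, and the T-bet+ difference from them of 1.02 ± 0.24 (edgeR, adjusted p = 0.00207) was lost without T-bet- replicate 1 or 2 or T-bet+ replicate 1.

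The membrane regulators were near the limit of detection. Cd55 (ENSMUSG00000026399), which speeds the decay of the C3-cleaving enzyme, lies at chr1:130439027-130462744 on the minus strand, and the antisense gene Gm16083 overlaps its start, so reads of the pair could be shared because the strand setting of the counting is not given in the sources used here. Cd55 was at 0–1.05 CPM in the 16 libraries, from 0–28 counts. Cd59a (ENSMUSG00000032679), which blocks the membrane attack complex, lies at chr2:104095801-104115354 on the plus strand and was at 0–2.08 CPM, from 0–48 counts. For both genes every pair of subsets overlapped in both tissues, and at these counts no fold change is given. The Cd55 start had open chromatin in every library all the same, at 8.38–10.5 CPM and without a difference, whereas the Cd59a start window held 1.48–3.21 CPM. None of the 6 Cd55 windows differed between subsets, and at Cd59a 1 of 5, in an intron 9623 bases after the start, was lower in T-bet+ cDC2s than in cDC1s by -2.22 ± 0.62 (edgeR, adjusted p = 0.00308), a call lost with DESeq2 (adjusted p = 0.059) and without cDC1 replicate 1 (adjusted p = 0.0595) or T-bet+ replicate 2 (adjusted p = 0.114).

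Between tissues none of the 9 members passed the threshold in any subset by edgeR. In T-bet+ cDC2s 1.30% of all genes passed as higher and 3.79% as lower in spleen than MLN. An unadjusted p under 0.05 by edgeR was found for 2 of the 9 members and for 4465 of all 16795 genes. These 2 were C3 (log2 fold change -2.39 ± 0.78, adjusted p = 0.0836 by edgeR) and C5ar1 (3.63 ± 1.24, adjusted p = 0.0928 by edgeR). DESeq2 called 2 members and 2704 of all 16838 genes it tested. In T-bet- cDC2s (1.59% and 4.36% of all genes) 0 members had an unadjusted p under 0.05, against 4108 of the 16795 genes. There 0 members were called by DESeq2, against 2243 of 16177 genes. The C1q chains had log2 fold changes of -1.22, -1.22 and -1.29 there (spleen over MLN), with adjusted p of 0.283, 0.262 and 0.242 by edgeR. In cDC1s (3.93% and 7.75% of all genes) 3 members had an unadjusted p under 0.05, against 5114 of the 16795 genes. Here 1 member was called by DESeq2, against 3513 of 16177 genes. The largest difference in cDC1s was that of C3ar1 (-4.00 ± 1.42, adjusted p = 0.0787 by edgeR). The difference between T-bet+ and T-bet- cDC2s was itself compared between tissues, and 0 of 9 members passed by edgeR, against 0.00595% of all genes. An unadjusted p under 0.05 was found for 0 of the 9 members and for 847 of the 16795 genes. For C1qa that interaction was 1.80 ± 1.00 and for C3 -1.31 ± 1.10 on the log2 scale, both at an adjusted p of 0.949 by edgeR.

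The rest of the complement system was represented by 43 further genes in the table, of 45 listed. In spleen 21 of them could be tested, and T-bet+ cDC2s were lower than T-bet- cDC2s in 5 and higher in 1. Of all genes 3.44% were lower and 1.95% higher. The median log2 fold change of the 21 was -0.70. The lower genes included Lrp1, an endocytic receptor (-3.00 ± 0.33, edgeR, adjusted p = 0.00103), Clu, a terminal pathway inhibitor (-3.51 ± 0.62, adjusted p = 0.012), Cd93, a receptor once described as a C1q receptor (-3.16 ± 0.68, adjusted p = 0.0278), and Cfb, the protease of the alternative pathway (-2.86 ± 0.71, adjusted p = 0.0485). The higher gene was Cr2, the receptor for C3 fragments, at 7.33, 4.43 and 8.68 CPM in T-bet+ libraries and 0 in all 3 T-bet- libraries. Its 512 counts put it at least 150-fold higher in T-bet+ cDC2s, against a floor of 3 counts over the group.

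Against spleen cDC1s, 6 of the 21 further genes were higher and 3 lower in T-bet+ cDC2s, and 8 were higher and 1 lower in T-bet- cDC2s. The shares of all genes were 9.97% and 8.20% for T-bet+ and 9.65% and 6.20% for T-bet- cDC2s. C5ar2, the second C5a receptor, was higher in both: it was at 6.77, 7.31 and 7.10 CPM in T-bet+, 2.50, 2.88 and 3.78 CPM in T-bet- cDC2s and 0, 0 and 0.0484 CPM in cDC1s. Thus C5ar2 was highest in T-bet+ and C5ar1 in T-bet- cDC2s, although neither passed between the cDC2 subsets. Itgam, the CD11b chain used in the sort, Lrp1 and Cd93 were also higher than in cDC1s in both cDC2 subsets. Hc, the gene for C5, was lower in both, and with 180 counts in cDC1s and 0 in T-bet- cDC2s it was at least 57.4-fold higher in the former. The others that passed included Cr2 and Itgb2 (higher) and Clu (lower) in T-bet+ cDC2s, and Cfb, Cr1l, Fcna and Itgax (higher) in T-bet- cDC2s. Cr1l is another membrane regulator, with a log2 fold change of 0.73 ± 0.22 there (edgeR, adjusted p = 0.0473).

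In MLN 26 of the further genes could be tested, and 0 passed between the cDC2 subsets by edgeR, as did 0% of all genes. An unadjusted p under 0.05 was found for 6 of the 26 and for 1444 of all 15298 genes. C5ar2, Itgam and Lrp1 were higher than in cDC1s in both cDC2 subsets, and Cfb was higher in T-bet- cDC2s. The shares of all genes higher and lower than in cDC1s were 4.11% and 2.11% for T-bet+ and 4.34% and 1.44% for T-bet- cDC2s. Between tissues, over 27 genes tested, Fcna, which encodes a ficolin that starts the lectin pathway, was higher in spleen in all 3 subsets, and Cfb and Clu were lower in spleen in all 3. Serping1 was lower in spleen in T-bet+ cDC2s, Cr2 and Hc were lower in spleen in T-bet- cDC2s, and Itgam and Itgax were higher in spleen in cDC1s. Of all genes, 1.30% were higher and 3.79% lower in spleen in T-bet+ cDC2s. These shares were 1.59% and 4.36% in T-bet- cDC2s and 3.93% and 7.75% in cDC1s.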

How the data were processed

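The gene counts were made by the authors, who aligned RNA-seq reads to mm10 with HISAT2 2.1.0, kept uniquely aligned reads with SAMtools 1.9 and assigned them to GENCODE genes by Rsubread. ATAC-seq reads were aligned by the authors with Bowtie2 2.2.5, shifted them for the transposase, called peaks with MACS2 2.1.1.20160309 on all replicates together and deposited counts in windows of 150 bases around summits. No replicates were pooled in the counts, and no normalization had been applied. The coordinates deposited with the windows were used, and the other columns of those files were not. Labels gave each library its group. One sentence of the methods swaps the RFP sign of the cDC2 subsets, and the labels were followed.

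Genes and windows with few counts were removed with filterByExpr of edgeR 4.0.16 (R 4.3.3, limma 3.58.1), and TMM normalization and the quasi-likelihood test were run over all genes or windows of a tissue or assay, with subset as the only term. A fit of all 16 RNA libraries compared tissues. Thresholds were an adjusted p under 0.05 for RNA and, for ATAC-seq, an adjusted p under 0.01 beside a log2 fold change beyond 0.5 in either direction. CPM used TMM library sizes, and likeness used log2 CPM with a prior count of 2 over genes averaging 50 or more normalized counts. The text names all 9 members, further complement genes that passed (the result of 1 of them is not reported here), the genes most like a member (at most 5), and at each locus the window nearest to a start and up to 4 windows that passed, by absolute log2 fold change. The members and lists were chosen with earlier results of these data known. Scripts were tested on simulated data. Alternatives were DESeq2 1.42.0, its size factors, other filters, only the compared subsets, a replicate block, library class, each library left out, and for ATAC-seq other flanks, thresholds, library size and whole peaks. The newer quasi-dispersion estimate of edgeR was added after seeing the data.

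Promoter sequences were matched in RefSeq for 8 of the 9 members, and printed windows were read from the mm10 reference. Counting error limits genes under 10 counts.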

Additional observations from a re-analysis of the deposited data

How the results depend on the processing

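In spleen, the number of members called between T-bet+ and T-bet- cDC2s was 4 under every library left out (4–4), and against cDC1s it was 2–5 for T-bet+ cDC2s (2 without cDC1 replicate 2) and 6–7 for T-bet- cDC2s. In MLN it was 0–0 between cDC2 subsets, 0–1 for T-bet+ and 0–6 for T-bet- cDC2s against cDC1s, with 0 without T-bet- replicate 1, 1 without T-bet- replicate 2 or cDC1 replicate 3 and 3 without cDC1 replicate 2. Between MLN cDC2 subsets 4 members were called by DESeq2 and 6 with no filter on low counts, and for MLN T-bet+ cDC2s against cDC1s 5 with no filter and 0 with only the compared subsets. Of all genes, these runs called 328 of 16160 and 554 of 27006 between the cDC2 subsets. Against cDC1s they called 2257 of 27006 and 586 of 14637. Between tissues, DESeq2, no filter and the newer quasi-dispersion estimate called 2, 2 and 1 in T-bet+ cDC2s and 1, 4 and 2 in cDC1s, and no filter called 4 in T-bet- cDC2s, with ranges of 0–1, 0–2 and 0–0 when libraries were left out, and 0–0 for the interaction. Of all genes, these runs called 2704 of 16838, 2875 of 34047 and 1438 of 16795 in T-bet+ cDC2s. In cDC1s they called 3513 of 16177, 3397 of 34047 and 2655 of 16795. In T-bet- cDC2s, no filter called 2435 of 34047. The cause was not tested. Of the windows, 4 differed between cDC2 subsets with flanks of 2 kb and 15 with 50 kb (4–8 over libraries left out), 10 and 37 for T-bet+ cDC2s against cDC1s (9 by DESeq2, 13–18), and 30 with 50 kb for T-bet- cDC2s (14–18).

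Libraries with the same replicate number in the labels were not shown to be paired, since 4 of 15 RNA pairs correlated over 0.1. Matched instead by the number in the library names, the MLN pairs correlated at 0.0255 to 0.382, and whether these are true pairs was not tested. The replicate block left the counts at 4, 4 and 7 in spleen, 0, 1 and 5 in MLN and 7, 18 and 18 for windows. Among the 5 for MLN T-bet- cDC2s against cDC1s, C3 (adjusted p = 0.0575) gave way to Cfp (adjusted p = 0.0352). A replicate block by the number in the MLN library names gave 3 between cDC2 subsets, and 4 for T-bet+ and 7 for T-bet- cDC2s against cDC1s. It turned Cfp between MLN cDC2 subsets to -0.50. Of all 15298 genes this block called 130, 2440 and 2477, against 0, 952 and 885 without a block.

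Directions that turned with single libraries left out had not passed the threshold with all libraries. On the log2 scale, Cfp ran from -0.29 to 1.03 between MLN cDC2 subsets. Between MLN T-bet+ cDC2s and cDC1s, without T-bet+ replicate 2 at the low end, C1qa ran from -0.68 to 2.25, C1qb from -0.26 to 2.39, C1qc from -0.23 to 2.38 and C3 from -1.08 to 2.97. Between tissues in T-bet+ cDC2s, C1qa ran from -0.29 to 2.68, C1qb from -0.31 to 2.37, C1qc from -0.56 to 2.00, C3 from -3.35 to 0.74, Cfp from -0.051 to 1.26 and C3ar1 from -2.48 to 1.11, and in T-bet- cDC2s Cfp from -0.062 to 0.51. For the interaction, C3 ran from -2.24 to 1.85, Cfp from -0.25 to 1.06 and C3ar1 from -0.46 to 3.16.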
